A study of Mus musculus with 12 samples.

Results

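The genes described here encode the subunits of the mitochondrial respiratory chain, complexes I to IV, and of the ATP synthase, complex V. They were chosen by symbol: a gene was a member where its symbol began with Nduf and a subunit letter and number, Sdha to Sdhd, Uqcr, Cox4 to Cox8 or Atp5, or named a protein gene of the mitochondrial genome, and where both deposited count tables listed it. This gave 92 of the 14360 genes listed in both tables: 79 nuclear genes (38 of complex I, 4 of complex II, 8 of complex III, 12 of complex IV and 17 of complex V) and all 13 protein genes of mitochondrial DNA. Another 18 annotated genes fit the naming rule and were listed in 1 table or in neither, among them Cox4i2, Cox6a2, Cox6b2, Cox7b2, Cox8b and Cox8c. All 92 members passed the filter on low counts in both cell lines.

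The study used a pair of mouse lines, the pancreatic adenocarcinoma line KPC4 and the pancreatic stellate cell line PSC4, so each result is for a single line. In the first step KPC4 cells received 10 µM gemcitabine, a nucleoside analogue used against pancreatic cancer, or vehicle for 6 h and were washed. They then conditioned starvation medium for 14 h, and PSC4 cells were kept for 24 h in the medium from vehicle-treated cells (Control-SU) or from gemcitabine-treated cells (Gem-SU). In the second step PSC4 cells held for 6 h in either medium were washed and conditioned fresh starvation medium for 18 h, and KPC4 cells were kept for 24 h in this medium (Control-PSC-SU or Gem-PSC-SU). The sequenced cells themselves were not given gemcitabine, and total RNA of 3 biological replicates in each of the 4 groups was sequenced. The labels do not say whether the replicates came from separate cultures in each step, so the p-values measure the spread between these libraries.

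Complex I passes electrons from NADH and complex II passes electrons from succinate to ubiquinone. Complex III hands them on to cytochrome c and complex IV to oxygen, and the ATP synthase uses the proton gradient built by complexes I, III and IV to make ATP. Complexes I, III, IV and V are assembled from proteins of both genomes, and complex II is wholly nuclear. Nuclear subunit genes are known targets of the factors NRF1, GABP and YY1, while the mitochondrial genes are transcribed together as long transcripts by the polymerase Polrmt with the factor Tfam.

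Library totals ran from 29559414 to 38138356 counts in PSC4 and from 26354328 to 34744150 in KPC4, so that 1 count is a minute share of a library and the differences between replicates set the precision for most members. In PSC4, 9 of 10 stellate or fibroblast markers were listed, with a summed level of 8129 to 8697 CPM (counts scaled to library size) in the Control-SU libraries and 2453 to 3665 in the Gem-SU libraries. The tumour epithelium markers Epcam, Cdh1 and Cldn4 were not listed in PSC4, and the summed level of all 9 was 3.74 to 6.09 CPM with Control-SU and 10.4 to 14.9 with Gem-SU. In KPC4 all 9 epithelium markers were listed, at 5972 to 7401 CPM with Control-PSC-SU and 5962 to 7424 with Gem-PSC-SU. Of the 10 stellate or fibroblast markers 6 were listed in KPC4, and Pdgfrb, Thy1, Lum and Dcn were not. Their summed level was 2417 to 2805 CPM with Control-PSC-SU and 1847 to 2207 with Gem-PSC-SU. The part of these markers in the results below was not tested.

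In PSC4 cells, the medium of gemcitabine-treated tumour cells went with lower RNA levels of a part of the respiratory chain genes, nuclear and mitochondrial-encoded. Of the 92 members, 33 fell and 0 rose (edgeR quasi-likelihood test, Benjamini-Hochberg adjusted p under 0.05 over all genes tested), 26 of them nuclear and 7 mitochondrial-encoded. Among all 13347 genes tested in PSC4, 46.3% passed, with 22.0% lower and 24.3% higher. The share of nuclear members that fell was 36.8% in complex I and 41.7% in complex IV, and in complexes II (25%), III (25%) and V (23.5%) it was near that of all genes. No member was higher at an unadjusted p under 0.05 either, and DESeq2 called 51 members, all lower, beside 43.7% of all genes called in either direction. The nuclear members had a median log2 fold change of -0.57 and the mitochondrial-encoded members of -0.92, beside 0.00 for all genes tested. In a fit with offsets for GC content and transcript length these medians were -0.28 and -0.34, and 26 members were lower, a share close to the 27.3% of all genes lower in that fit. There 13 of 38 nuclear members of complex I, 2 of 12 of complex IV and 5 of 17 of complex V were lower. In a fit blocked on replicate number 10 of 12 in complex IV and 9 of 17 in complex V were lower, beside 26.6% of all genes. With the block and the offsets together 3 of 12 and 5 of 17 were lower, beside 58.7% of all genes called in either direction. Over all genes the same-numbered PSC4 libraries did not all deviate together (correlations 0.428, -0.0548 and 0.102). Differences between complexes were not tested. In the fit without offsets or block the change lay below 0 for 82 of the 92 members and for 50.1% of all genes. In 35 members the 3 Gem-SU libraries all lay below the 3 Control-SU libraries, which held for 27.1% of all genes, and in 0 members all above, which held for 29.3%. In these bulk RNA samples fewer cells with a given RNA content and less of the RNA per cell cannot be told apart.

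The number of calls moved with single libraries, and the shares of all genes called in those fits are not given here. Without Gem-SU replicate 2 it was 7, without Gem-SU replicate 3 it was 15, of which Ndufb6 was higher, and without Control-SU replicate 1 it was 20, while it was 58 without Gem-SU replicate 1. Across the nuclear members the median deviation from the Control-SU mean, on the log2(CPM + 0.5) scale, was 0.20, -0.02 and -0.15 in the Control-SU libraries and -0.17, -0.65 and -1.02 in Gem-SU replicates 1, 2 and 3. Gem-SU replicate 1 thus lay nearest to the controls, level with the lowest of them. The members that fell in the full fit and in all 6 fits without 1 library numbered 7: Cox7a2l, Cox7b, Ndufa6, Ndufs7, Sdhc, Uqcrh and mt-Nd3. These names were read off after the fits.

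**Figure D1:**
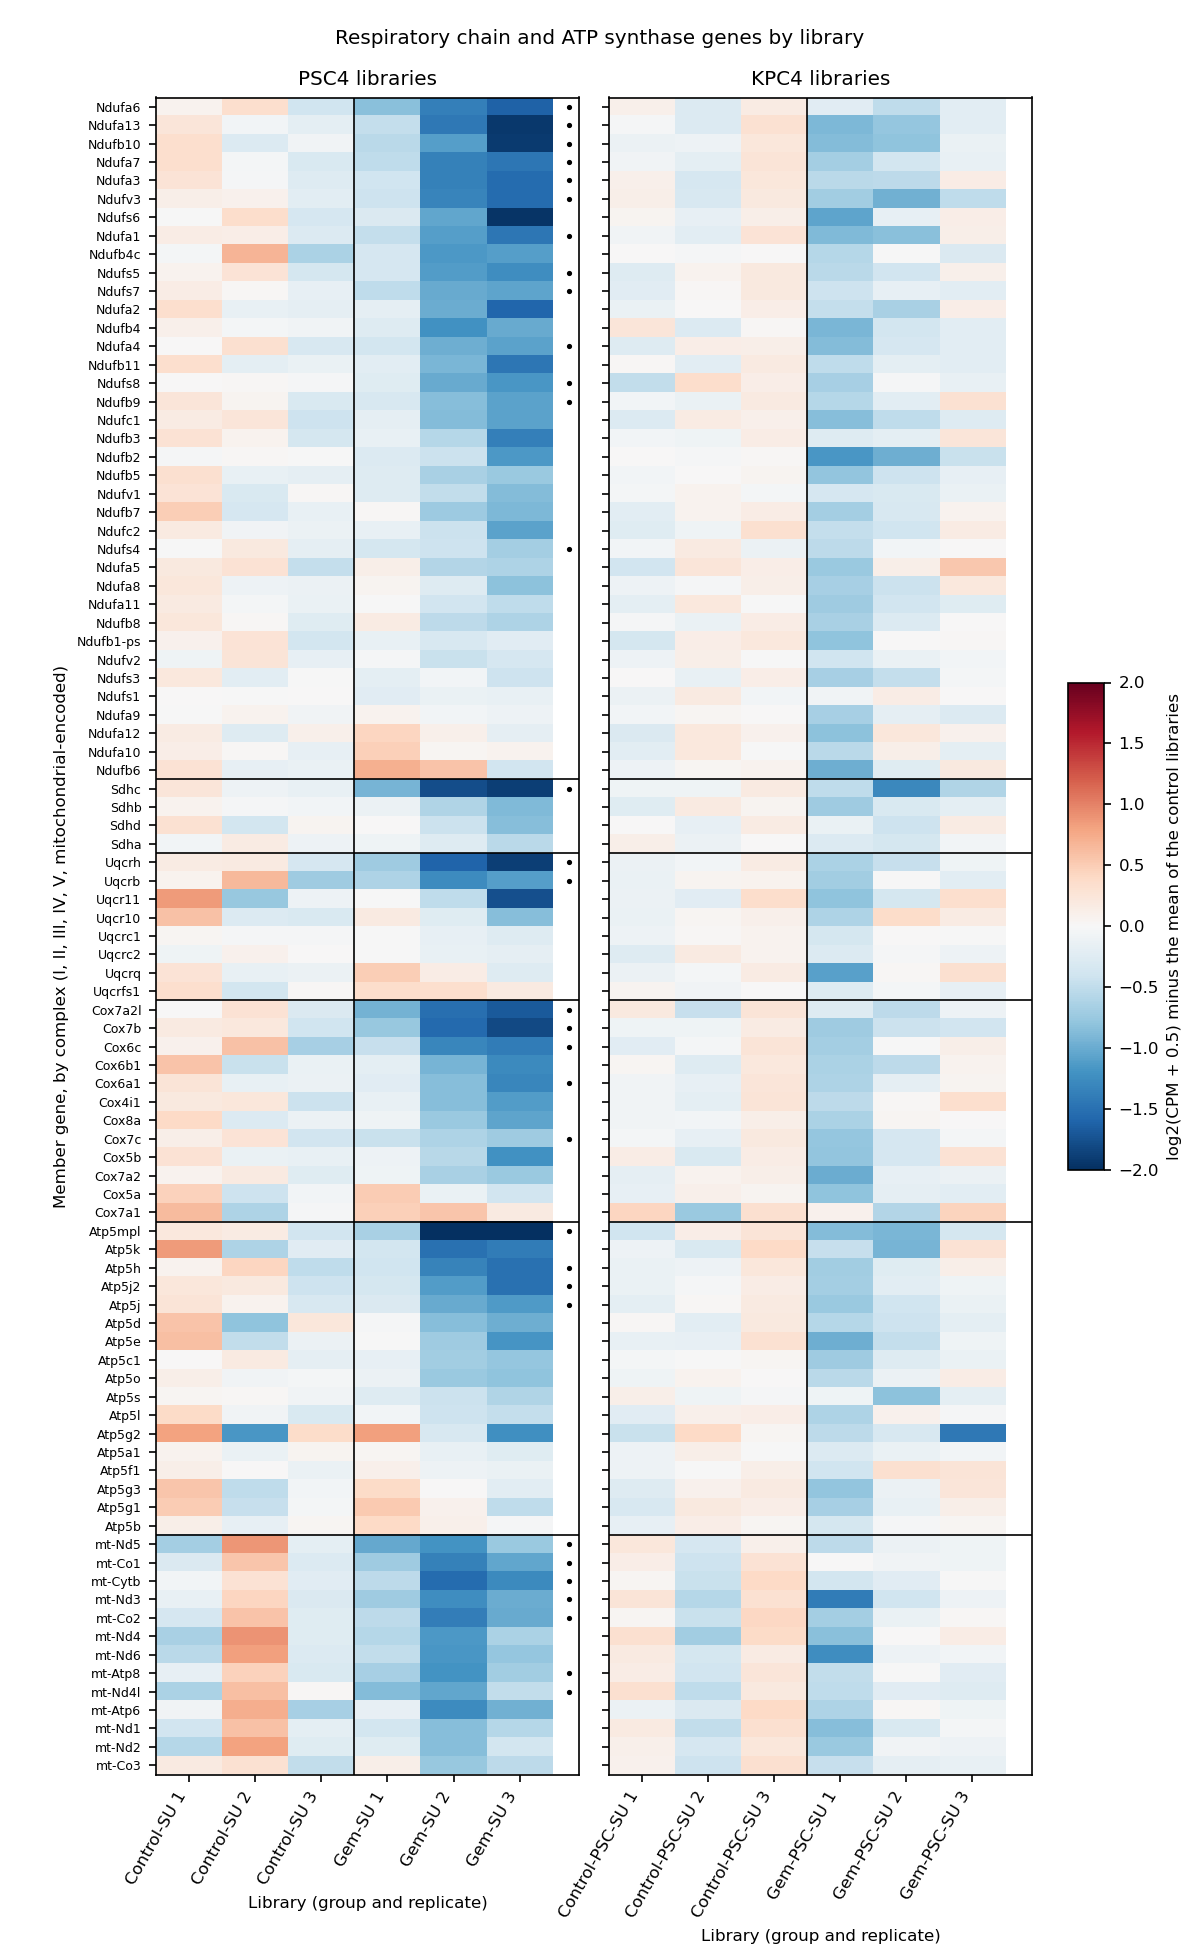
Heat map of 91 of the 92 members (rows, by complex and fitted PSC4 change) in the 12 libraries (columns). Colour is log2(CPM + 0.5) minus the mean of the 3 control libraries of that line, drawn from -2 to 2, and dots mark an adjusted p under 0.05; the 32 dots are all in PSC4, where Gem-SU replicates 2 and 3 are blue for most members and Gem-SU replicate 1 is closer to the controls.

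Promoter sequences were available for 63 of the 79 nuclear members, from the RefSeq windows of build GRCm38.p6 that run from 250 bases before to 50 bases after the start. They were searched on both strands for an NRF1 motif, for an ETS motif of the kind GABP binds (CCGGAAG) and for a YY1 motif. The NRF1 letters are those in capitals in the Ndufs5 sequence, with any base allowed in the place after GCGCA. Matches to different motifs were allowed to overlap. The NRF1 letters were found in 27% of the member windows and in 5.19% of the windows of all 27025 genes. For the ETS letters the shares were 25.4% and 9.93%, and for the YY1 letters 7.94% and 0.995%. Among the 20 members with a window that fell in PSC4 the shares were 20%, 25% and 15%, and among the 43 that did not pass they were 30.2%, 25.6% and 4.65%. These shares are descriptions of letters in a window, with no test. To set the matched letters beside the genes, the 140 bases just before the start are given for 5 members that fell in PSC4, all on the minus strand and printed 5′ to 3′ along the gene, with the matched letters in capitals (an ETS match on the other strand reads CTTCCGG). Cox7a2l, which had the smallest p of the members with a window, is at chr17:83514334-83514473. The others were picked after their values were seen, by smallest p among members with a single window and a match within these 140 bases. They were picked for an NRF1 match (Ndufs5, chr4:123718187-123718326, and Cox6a1, chr5:115348959-115349098) or an ETS match (Uqcrh, chr4:116075071-116075210, and Atp5h, chr11:115419920-115420059). No stretch with a YY1 match is printed.
Cox7a2l: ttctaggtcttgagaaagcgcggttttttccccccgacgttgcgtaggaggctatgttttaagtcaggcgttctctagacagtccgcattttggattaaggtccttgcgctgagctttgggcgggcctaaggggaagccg
Ndufs5: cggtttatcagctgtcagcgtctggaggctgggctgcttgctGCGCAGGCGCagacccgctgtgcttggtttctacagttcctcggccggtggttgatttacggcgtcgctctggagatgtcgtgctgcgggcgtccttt
Cox6a1: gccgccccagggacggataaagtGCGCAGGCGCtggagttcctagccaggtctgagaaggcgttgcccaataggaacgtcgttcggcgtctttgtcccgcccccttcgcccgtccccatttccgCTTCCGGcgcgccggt
Uqcrh: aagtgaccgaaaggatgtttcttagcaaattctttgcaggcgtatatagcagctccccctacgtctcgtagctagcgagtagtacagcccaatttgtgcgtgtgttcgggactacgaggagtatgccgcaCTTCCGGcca
Atp5h: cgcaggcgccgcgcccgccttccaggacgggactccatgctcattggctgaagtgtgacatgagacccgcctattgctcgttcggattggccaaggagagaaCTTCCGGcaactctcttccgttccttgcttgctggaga
The Cox6a1 stretch holds both an NRF1 and an ETS match, the Uqcrh and Atp5h stretches an ETS match close to the start, and the Cox7a2l stretch none of the searched letters.

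Complex I, the entry point for NADH electrons, had 14 of its 38 nuclear members lower in PSC4 and a median log2 fold change of -0.62. Among its nuclear core subunits, which carry the flavin, the iron-sulphur clusters and the ubiquinone site, Ndufs7 and Ndufs8 fell. Of its 31 accessory subunits 11 fell. Ndufa6, an accessory subunit that holds the mitochondrial acyl carrier protein, was at 82.9, 99.4 and 59.4 CPM with Control-SU and at 43.7, 30.3 and 25.4 CPM with Gem-SU. All 3 Gem-SU libraries lay below all 3 controls, and the gene fell 2.43-fold (log2 fold change -1.28 ± 0.25 SE, edgeR adjusted p = 0.00385). Ndufs7, an iron-sulphur subunit next to the ubiquinone site, stood at 53.1, 48.8 and 42.8 CPM against 33.5, 23.6 and 22.9 CPM, without overlap (-0.85 ± 0.19, edgeR adjusted p = 0.00673). Ndufs8 measured 31, 31.2 and 30.1 CPM in the controls and 26, 15.1 and 13.4 CPM with Gem-SU (-0.76 ± 0.25, edgeR adjusted p = 0.0366).

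Not every complex I gene was lower. Ndufs1, the largest core subunit, was at 71.9, 70.9 and 71.4 CPM with Control-SU and at 61.2, 65.1 and 64.1 CPM with Gem-SU. Its groups did not overlap, yet the change of -0.17 ± 0.12 did not pass (edgeR adjusted p = 0.284). The accessory subunits with the smallest p on the higher side, Ndufb6 and Ndufa10, gave 0.37 ± 0.29 and 0.20 ± 0.17 (edgeR adjusted p = 0.322 and 0.353), and both had overlapping groups. Ndufa4, which carries a complex I name but is found in complex IV, had 118, 146 and 93.5 CPM in the controls and 90.7, 59.6 and 55.5 CPM with Gem-SU, and fell (-0.80 ± 0.23, edgeR adjusted p = 0.0223). Its paralogue Ndufa4l2, listed only in the PSC4 table, had 0, 8 and 3 counts with Control-SU and 25, 13 and 6 with Gem-SU, too few to test. Ndufb4 and its near copy Ndufb4c could share reads, and so could members with processed pseudogenes.

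Complex II, succinate dehydrogenase, has 4 subunits and 1 of them fell in PSC4. Sdhc, a membrane anchor that helps bind haem and ubiquinone, was at 97.7, 76.6 and 74.2 CPM with Control-SU and 42.9, 23.8 and 22 CPM with Gem-SU. The groups were well apart, and the fall was 2.8-fold (-1.49 ± 0.27, edgeR adjusted p = 0.00246). The other three subunits did not pass: Sdha, the flavoprotein, gave -0.29 ± 0.17, Sdhb, the iron-sulphur subunit, -0.50 ± 0.21, and Sdhd, the other anchor, -0.41 ± 0.25 (edgeR adjusted p = 0.183, 0.0744 and 0.208). Sdhb libraries did not overlap between groups, at 49.4, 46.4 and 45.3 CPM against 43.5, 30.7 and 25.4 CPM.

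Complex III had 2 of its 8 nuclear members lower, with a median of -0.22, and its core proteins did not pass the test. Uqcrh, the acidic hinge protein that contacts the cytochrome c side, stood at 76.9, 77.4 and 53.9 CPM with Control-SU and at 41.7, 22.2 and 18.1 CPM with Gem-SU. The groups did not overlap (-1.34 ± 0.31, edgeR adjusted p = 0.00786, 2.54-fold). Uqcrb, another small subunit, had 44.3, 66.4 and 25.5 CPM and 27.3, 17.3 and 19.5 CPM, so that Gem-SU replicate 1 lay above Control-SU replicate 3 (-1.09 ± 0.33, edgeR adjusted p = 0.0267). The core protein Uqcrc1 was at 112, 108 and 108 CPM against 109, 97.5 and 91.8 CPM (-0.14 ± 0.13, edgeR adjusted p = 0.417). Uqcrfs1, the Rieske iron-sulphur protein, and Uqcrq had the smallest p on the higher side, with 0.27 ± 0.19 and 0.15 ± 0.22 (edgeR adjusted p = 0.275 and 0.614).

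Complex IV, cytochrome c oxidase, had 5 of its 12 nuclear members lower, Cox7a2l, Cox7b, Cox6c, Cox6a1 and Cox7c, with a median of -0.64. Cox7a2l, also called SCAF1, joins complexes III and IV into supercomplexes. It was at 202, 244 and 163 CPM with Control-SU and at 104, 69.8 and 62.2 CPM with Gem-SU, without overlap, and fell 2.58-fold (-1.37 ± 0.23, edgeR adjusted p = 0.00197). Cox7b, a small membrane subunit, had 83, 84.5 and 55.6 CPM against 43.1, 24.5 and 20.6 CPM, also without overlap (-1.34 ± 0.29, edgeR adjusted p = 0.00624). Cox4i1, the regulatory subunit with the highest control level per kilobase of transcript among the nuclear members (494 ± 116 CPM per kilobase, SD, n = 3), was at 420, 427 and 272 CPM against 330, 203 and 169 CPM. Its groups overlapped and the change did not pass (-0.67 ± 0.28, edgeR adjusted p = 0.0792).

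Cox6a1, a small subunit, had 169, 128 and 131 CPM with Control-SU and 121, 78.3 and 57.1 CPM with Gem-SU and fell (-0.74 ± 0.26, edgeR adjusted p = 0.0469). Cox6b1 (-0.80 ± 0.33), Cox8a (-0.61 ± 0.27) and Cox7a2 (-0.48 ± 0.21) did not pass (edgeR adjusted p = 0.0805, 0.101 and 0.0904). Of the related genes Cox7a1, Cox7a2 and Cox7a2l, the control level was 0.81 ± 0.894, 86.6 ± 12.6 and 189 ± 38 CPM per kilobase (SD, n = 3). Cox7a1, the form of heart and skeletal muscle, was close to the floor of detection, at 24, 0 and 8 counts against 22, 21 and 11 counts. Cox5a gave 0.00 ± 0.29, with 59.8, 32.4 and 41.7 CPM in the controls and 61.6, 39.4 and 33 CPM with Gem-SU. Whether the changes of Cox7a2 and Cox7a2l differ from each other was not tested.

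The ATP synthase had 4 of its 17 nuclear members lower, all outside the F1 part (catalytic head and central stalk): Atp5mpl, Atp5h, Atp5j2 and Atp5j. The median was -0.52 over the complex. Of the 5 F1 subunits (Atp5a1, Atp5b, Atp5c1, Atp5d and Atp5e) 0 passed the edgeR test, beside 4 passing of 12 outside F1. In F1 1, Atp5c1, had an unadjusted p under 0.05. The medians were close, at -0.52 in F1 and -0.50 outside it. In a fit blocked on replicate number 3 of 5 F1 subunits and 6 of 12 others were lower, beside 26.6% of all genes. With the block and GC and length offsets together 1 of 5 and 4 of 12 were lower, beside 58.7% of all genes called in either direction. The difference between F1 and the other subunits was not tested. Atp5mpl, a small proteolipid of the membrane part, was at 28.4, 27.5 and 18.5 CPM with Control-SU and at 15.4, 5.77 and 4.67 CPM with Gem-SU. No libraries overlapped, and the fall was 2.88-fold (-1.52 ± 0.43, edgeR adjusted p = 0.0193). Atp5h, a subunit of the peripheral stalk, had 102, 130 and 68.2 CPM against 73.3, 38.2 and 33.9 CPM, with Gem-SU replicate 1 above Control-SU replicate 3 (-1.05 ± 0.33, edgeR adjusted p = 0.0297).

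Atp5b, the catalytic beta subunit, was the most abundant nuclear member by CPM, at 778, 640 and 737 CPM with Control-SU and 946, 766 and 702 CPM with Gem-SU. Its groups overlapped (0.16 ± 0.18, edgeR adjusted p = 0.489). The genes Atp5g1, Atp5g2 and Atp5g3 encode the same mature c subunit of the rotor ring. Their changes were 0.04 ± 0.31, -0.24 ± 0.68 and 0.01 ± 0.27 (edgeR adjusted p = 0.922, 0.794 and 0.975), each with overlapping groups. By control level per kilobase Atp5g3 led with 121 ± 44.5 CPM per kilobase, followed by Atp5g1 with 14.8 ± 5.02 and Atp5g2 with 7.07 ± 4.5 (SD, n = 3), and the spreads of Atp5g1 and Atp5g2 overlapped.

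**Figure D2:**
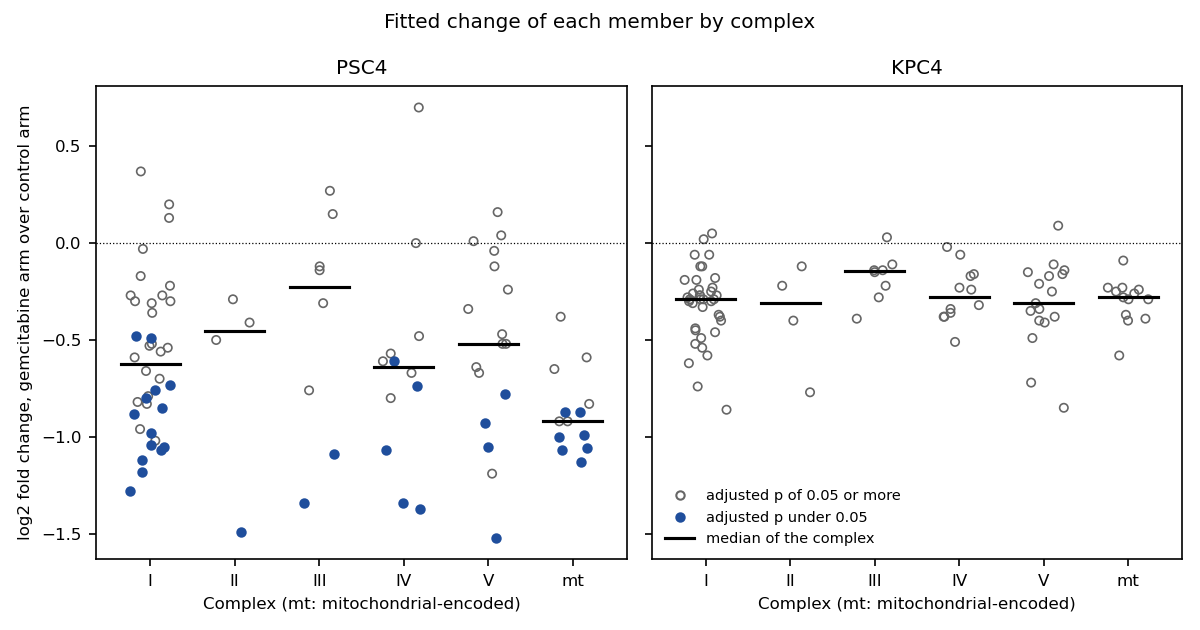
Fitted log2 fold change (y axis) of each member by complex (x axis) in PSC4 (left) and KPC4 (right), 1 point a gene, filled where the edgeR adjusted p is under 0.05, with the median as a bar. The filled points are 33 members in PSC4, all below 0, and 0 in KPC4, where 88 of the 92 open points are below 0.

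The 13 mitochondrial-encoded members took 4.1%, 7.28% and 4.07% of all counts in the Control-SU libraries (mean 5.15% ± 1.84 SD) and 3.53%, 2.17% and 2.72% in the Gem-SU libraries (2.81% ± 0.684). The groups did not overlap, and Control-SU replicate 2 stood well above the other controls. Within the controls, mt-Co2, mt-Co1 and mt-Atp6 had the highest level per kilobase, at 10156 ± 3796, 9608 ± 3484 and 9175 ± 4452 CPM per kilobase (SD, n = 3), which differ by less than their spread, and mt-Nd3 the lowest, at 1036 ± 288. The median nuclear member was at 58.9 CPM per kilobase and the median mitochondrial-encoded member at 3470. Without Control-SU replicate 2 the median log2 fold change of the 13 genes moved from -0.92 to -0.54.

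**Figure D3:**
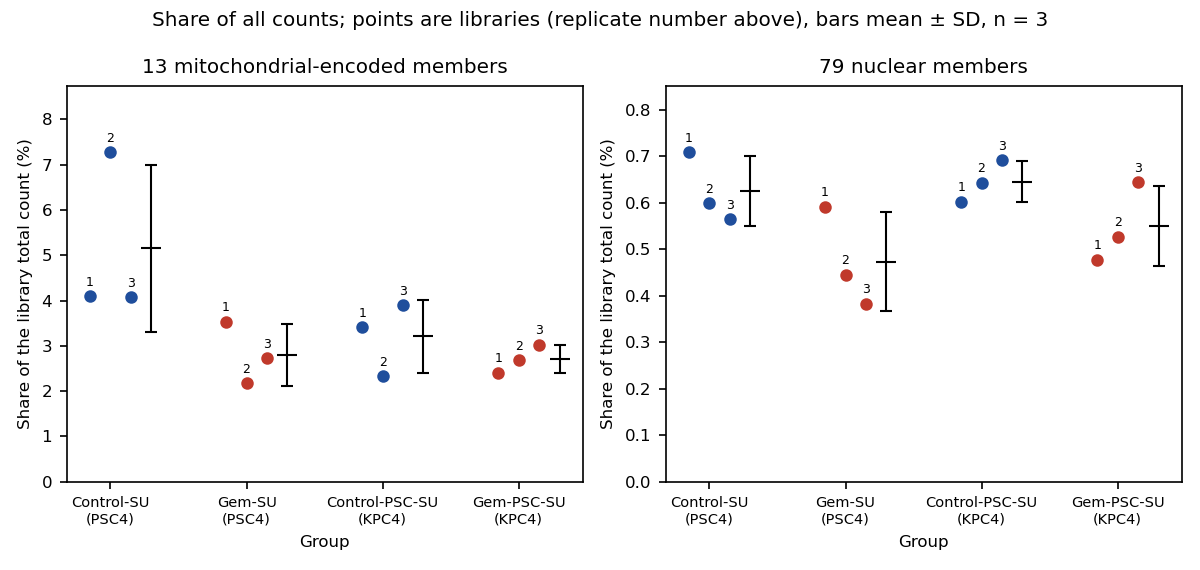
Share of the library total count (y axis, %) taken by the 13 mitochondrial-encoded members (left) and the 79 nuclear members (right) in each group (x axis); points are libraries and bars the mean ± SD (n = 3). In PSC4 the mitochondrial-encoded share was 4.07% to 7.28% with Control-SU and 2.17% to 3.53% with Gem-SU, and the nuclear shares of these groups overlapped.

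By gene, 7 of the 13 fell in PSC4 (mt-Nd3, mt-Nd4l, mt-Nd5, mt-Cytb, mt-Co1, mt-Co2 and mt-Atp8) and the fitted change was below 0 for all 13. With GC and length offsets 3 of the 13 (mt-Nd5, mt-Cytb and mt-Co1) were lower, beside 27.3% of all genes, and mt-Atp8 stood at 0.09. mt-Co1, the subunit of complex IV with the oxygen-reducing centre, was at 11620, 21058 and 11857 CPM with Control-SU and 8693, 5604 and 6945 CPM with Gem-SU. The groups did not overlap (-1.07 ± 0.32, edgeR adjusted p = 0.0232). mt-Cytb, the one complex III subunit of mitochondrial DNA, had 3837, 4842 and 3393 CPM against 2764, 1371 and 1654 CPM, without overlap (-1.06 ± 0.30, edgeR adjusted p = 0.0184). mt-Nd3, a membrane subunit of complex I, gave the smallest p of the 13, with 317, 475 and 289 CPM against 214, 149 and 177 CPM, a 2-fold fall (SE 0.23 on the log2 scale, edgeR adjusted p = 0.00759). mt-Nd5, a proton-pumping subunit, stood at 2879, 8525 and 4024 CPM against 2277, 2017 and 2776 CPM, and its control mean leans on replicate 2 (-1.13 ± 0.39, edgeR adjusted p = 0.0405).

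The complex IV subunit mt-Co2 also fell, from 5255, 9936 and 5649 CPM to 4656, 2550 and 3298 CPM (-0.99 ± 0.33, edgeR adjusted p = 0.0369). mt-Nd1 had 2080, 4076 and 2374 CPM with Control-SU and 2106, 1507 and 1826 CPM with Gem-SU. Its groups overlapped and it did not pass (-0.65 ± 0.29, edgeR adjusted p = 0.0936), nor did mt-Nd2, mt-Nd4, mt-Nd6, mt-Co3 and mt-Atp6, with changes from -0.92 to -0.38. mt-Atp8 and mt-Nd4l (both at -0.87, edgeR adjusted p = 0.0200 and 0.0414) overlap mt-Atp6 and mt-Nd4 in the genome, so each pair may share reads. mt-Nd6 lies on the opposite strand to the other protein genes, and without strand information its reads and antisense reads cannot be told apart.

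Respiratory chain transcripts are short, and short genes as a class were lower in the Gem-SU libraries. In PSC4 the 409 tested genes with a transcript under 700 nt had a median log2 fold change of -0.60, the 1872 genes of 700 to 1500 nt -0.28 and the 11037 longer genes 0.06. Nuclear members stood at -0.76 (33 genes), -0.66 (29 genes) and -0.27 (17 genes) in the same bins, below all genes in each bin. The rank correlation of length and change was 0.38 over the 79 nuclear members (Spearman, across genes of the same libraries, a description) and 0.12 over all genes with a length. The 930 other genes under 1000 nt deviated from the Control-SU mean by a median of 0.17, -0.07 and -0.10 in the controls and -0.15, -0.46 and -0.60 in Gem-SU replicates 1, 2 and 3, the same order of libraries as for the nuclear members. The mitochondrial-encoded members had another order, with medians of -0.34, 0.58 and -0.25 in the controls and -0.53, -1.19 and -0.74 with Gem-SU.

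The edgeR fit with offsets for GC content and length was an alternative added after the data were seen. There were 28 calls, beside 55.7% of all genes, 26 of them lower and 2 higher (Ndufb6 at 0.79 and Uqcrq at 0.46), and 20 of the 33 calls were kept. The genes that kept their call included Sdhc (-1.57, edgeR adjusted p = 0.00152), Cox7a2l (-1.15, edgeR adjusted p = 2.25e-04), Ndufa6 (-0.77, edgeR adjusted p = 0.00314) and mt-Co1 (-1.02, edgeR adjusted p = 0.00873). mt-Nd3 (-0.25, edgeR adjusted p = 0.151) and Ndufs7 (-0.44, edgeR adjusted p = 0.0544) did not.

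**Figure D4:**
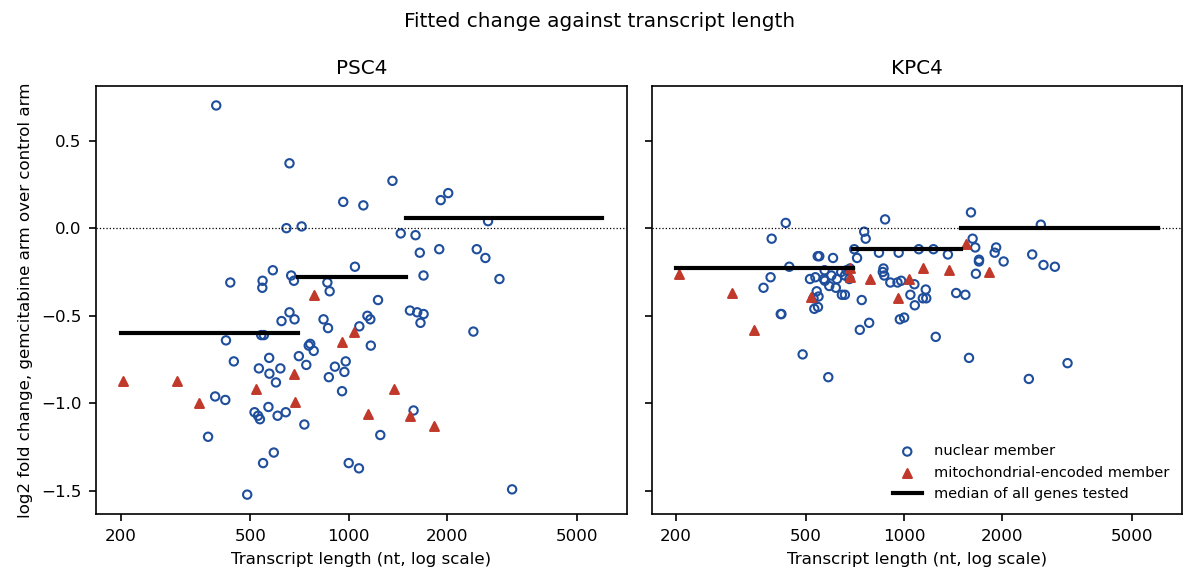
Fitted log2 fold change (y axis) against transcript length (x axis, nt, log scale) for nuclear members (circles) and mitochondrial-encoded members (triangles) in PSC4 (left) and KPC4 (right). Black bars are the median of all genes tested in each length bin, -0.60, -0.28 and 0.06 in PSC4 and -0.23, -0.12 and 0.00 in KPC4.

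Genes that build, regulate or feed the chain were called in both directions in PSC4, apart from the regulators, and the counts of each list stand beside 24.3% higher and 22.0% lower among all genes. The assembly factors and the mitochondrial ribosome had shares no larger than these in either direction. Of 51 assembly factors 12 rose and 9 fell, with a median of -0.03; the copper delivery factors Cox11, at 12, 7.35 and 9.19 CPM against 30.4, 27 and 23.6 CPM (1.51 ± 0.22, edgeR adjusted p = 9.87e-04), and Sco1 (1.18 ± 0.17, edgeR adjusted p = 9.22e-04) had the smallest p. Of 20 other subunits and electron carriers 6 rose and 3 fell. Cytochrome c, Cycs, had 39.6, 46.7 and 28.9 CPM with Control-SU and 104, 77.9 and 73.3 CPM with Gem-SU and rose without overlap (1.15 ± 0.21, edgeR adjusted p = 0.00304). Pdss1, which makes the side chain of ubiquinone, rose from 5.07, 3.98 and 4.84 CPM to 21.4, 26.1 and 27.6 CPM (2.43 ± 0.20, edgeR adjusted p = 8.49e-05), and Coq7, a later step of the same synthesis, fell (-1.12 ± 0.20, edgeR adjusted p = 0.00255).

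Among 16 nuclear regulators and mitochondrial transcription factors 2 rose and 0 fell by edgeR, with a median of 0.10. Gabpb1, a subunit of GABP, was at 30.1, 32.9 and 24.4 CPM against 97.4, 105 and 95.7 CPM (1.77 ± 0.16, edgeR adjusted p = 1.11e-04), far outside the control range, and Pprc1, a coactivator, gave 0.47 ± 0.15 (edgeR adjusted p = 0.0308). The DNA-binding GABP subunit Gabpa (-0.16 ± 0.19), Nrf1 (0.14 ± 0.14), Tfam (0.17 ± 0.15) and Polrmt (0.07 ± 0.16) did not pass (edgeR adjusted p = 0.524, 0.435, 0.363 and 0.754). Of 17 tested genes of mitochondrial RNA processing and stability 9 rose and 2 fell, with a median of 0.60, led by Tbrg4 (1.54 ± 0.15, edgeR adjusted p = 1.63e-04) and Fastkd3 (1.34 ± 0.17, edgeR adjusted p = 5.45e-04). Of 10 genes of mitochondrial DNA maintenance 5 rose and 1 fell, with a median of 0.51, and the polymerase gene Polg was at 64.8, 54 and 67.5 CPM against 129, 134 and 131 CPM (1.08 ± 0.14, edgeR adjusted p = 5.13e-04).

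The citric acid cycle and pyruvate dehydrogenase list had 5 of 16 genes higher and 7 lower, with a median of -0.05. Idh3g, a regulatory subunit of isocitrate dehydrogenase, fell from 140, 211 and 153 CPM to 85.7, 68.4 and 77 CPM (-1.12 ± 0.19, edgeR adjusted p = 0.00174), and Pdhb, a subunit of pyruvate dehydrogenase, rose (0.75 ± 0.13, edgeR adjusted p = 0.00244). Of 79 genes of the mitochondrial ribosome 13 rose and 13 fell, with a median of -0.08; Mrps6 (1.33 ± 0.24) and Mrps7 (1.03 ± 0.21) had the smallest p (edgeR adjusted p = 0.00258 and 0.00463). The members' median of -0.64 was lower than that of each of the 7 lists, a description with no test. With GC and length offsets the members' median was -0.30, and the medians of the lists in that fit are not given here.

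In KPC4 cells kept in medium of PSC4 cells, 0 of the 92 members passed the edgeR test, as did 0% of the 13236 genes tested, and 8 members, all lower, had an unadjusted p under 0.05 beside 17.0% of all genes (6.07% lower). DESeq2 called 1 member, Ndufb2, lower, beside 5.95% of all genes. The median log2 fold change was -0.28 for the nuclear members and -0.28 for the mitochondrial-encoded members, beside -0.02 for all genes. The fitted change was below 0 for 88 of 92 members and for 51.9% of all genes, and the Gem-PSC-SU libraries lay all below the controls for 11 members, beside 11.0% of all genes. Same-numbered KPC4 libraries deviated together, and in a fit blocked on that number 5 members fell (Ndufb2, Ndufv3, Ndufa13, Sdhc and Atp5mpl) and 0 rose, beside 8.85% of all genes called and 2.78% lower. The block together with GC and length offsets left 3 (Ndufb2, Ndufv3 and Sdhc), beside 7.74% of all genes.

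Ndufb2, an accessory subunit of complex I, was at 21.1, 20.8 and 21.4 CPM with Control-PSC-SU and at 9.18, 10.5 and 15.3 CPM with Gem-PSC-SU. The groups did not overlap (-0.86 ± 0.24, edgeR adjusted p = 0.158 without and 0.0361 with the block). Ndufv3 had 53.5, 39 and 56.5 CPM against 30, 24.9 and 34.5 CPM, also without overlap (-0.74 ± 0.22, edgeR adjusted p = 0.169 without and 0.0246 with the block). Sdhc, which fell in PSC4, stood at 71, 71.2 and 85.6 CPM against 53.3, 30.5 and 49.6 CPM (-0.77 ± 0.24, edgeR adjusted p = 0.175 without and 0.0343 with the block). Of the 5 block calls, 4 were calls in the PSC4 fit without a block, the exception being Ndufb2. In PSC4 Ndufb2 gave -0.59 ± 0.24 (edgeR adjusted p = 0.0761 without and 0.0218 with the block). With the block all 5 were lower in PSC4 too.

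Complex medians in KPC4 were close to each other, from -0.31 in complexes II and V to -0.15 in complex III. In complex IV the smallest p on the lower side were those of Cox7b (-0.51 ± 0.18) and Cox5a (-0.38 ± 0.22), with edgeR adjusted p = 0.226 and 0.403. In complex III they were those of Uqcrh (-0.39 ± 0.20) and Uqcrb (-0.28 ± 0.23), with edgeR adjusted p = 0.361 and 0.548. In complex V Atp5mpl (-0.72 ± 0.25, 0.0451 with the block) was followed by Atp5d (-0.40 ± 0.19, 0.106 with the block), with edgeR adjusted p = 0.217 and 0.317 without it. Ndufs1 (0.02 ± 0.17), Cox4i1 (-0.02 ± 0.24) and Uqcrc1 (-0.11 ± 0.17) were near 0, with standard errors that leave room for changes of either sign. The other members above 0 were Atp5f1 (0.09 ± 0.21), Ndufa5 (0.05 ± 0.34) and Uqcr10 (0.03 ± 0.27). The mitochondrial-encoded share of counts was 3.41%, 2.33% and 3.9% with Control-PSC-SU and 2.41%, 2.68% and 3.02% with Gem-PSC-SU (3.21% ± 0.803 and 2.7% ± 0.306), so the groups overlapped. Of the 13 mitochondrial-encoded genes 0 had an unadjusted p under 0.05; the changes ran from -0.58 (mt-Nd3) to -0.09 (mt-Co1).

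The nuclear median rested on single KPC4 libraries: leaving out Gem-PSC-SU replicate 1 gave -0.14, and leaving out replicate 3 of that group gave -0.46. Nuclear members deviated from the Control-PSC-SU mean by a median of -0.10, -0.02 and 0.14 in the controls and -0.64, -0.28 and -0.04 in Gem-PSC-SU replicates 1, 2 and 3, and the 946 other genes under 1000 nt by -0.06, -0.05 and 0.12 and by -0.32, -0.20 and 0.01. With GC and length offsets the nuclear median was -0.14. The 7 pathway lists had 0 genes passing in KPC4 by edgeR, with medians from -0.23 to 0.05, and at most 1 gene higher and 2 lower in a list with the block. Mgme1, a nuclease of mitochondrial DNA maintenance, gave 0.99 ± 0.28 (edgeR adjusted p = 0.162 without and 0.0177 with the block), and Ssbp1, the single-stranded DNA binding protein of mitochondria, gave -0.62 ± 0.18 (edgeR adjusted p = 0.169 without and 0.0493 with the block). Fastkd1 (-0.97 ± 0.23), Uqcc2 (-0.77 ± 0.24) and Mrpl19 (-0.59 ± 0.20) passed with the block too (edgeR adjusted p = 0.0331, 0.0473 and 0.0450 with the block). Gabpb1, which rose in PSC4, was at 19.4, 22.4 and 19.5 CPM against 23.1, 68.9 and 37.8 CPM, all 3 above the controls (1.08 ± 0.36, edgeR adjusted p = 0.202 without and 0.0595 with the block).

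The changes in the 2 lines were compared by the interaction term of one edgeR fit over all 12 libraries. It called 0 of the 92 members, beside 9.85% of the 13632 genes tested (5.10% lower in PSC4), and 7 members, all lower in PSC4, had an unadjusted p under 0.05 (25.5% of all genes). DESeq2 called 3 members (Cox7a2l, Ndufa6 and mt-Co1), beside 15.6% of all genes. The blocked edgeR fit called 10, all with the lower change in PSC4, beside 21.9% of all genes called in either direction. Its block covers both lines, although over all genes the same-numbered PSC4 libraries did not all deviate together. GC and length offsets left Cox7a2l as the 1 call without the block, beside 15.6% of all genes, and 5 calls with it, beside 24.9%. The median difference, PSC4 minus KPC4, was -0.35 for the nuclear and -0.64 for the mitochondrial-encoded members and -0.09 for all genes, and 77 of 92 members were below 0 beside 55.2% of all genes. Cox7a2l had the smallest p among nuclear members (-1.10 ± 0.34, edgeR adjusted p = 0.0600, 0.00488 with the block), and Ndufa6 (-1.01 ± 0.33) and Uqcrh (-1.01 ± 0.39) followed, with edgeR adjusted p = 0.0724 and 0.121, and 0.00839 and 0.0107 with the block. On the other side Uqcrfs1, Ndufa9 and Ndufb6 gave 0.37 ± 0.25, 0.29 ± 0.21 and 0.59 ± 0.45 (edgeR adjusted p = 0.383, 0.416 and 0.433).

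Without Gem-SU replicate 1 the interaction called 12 members and without Gem-PSC-SU replicate 2 it called 2. The shares of all genes called in these fits are not given here. Of the 92 members, 78 had a fitted change below 0 in both lines, beside 35.9% of the 12207 genes tested in both. The 2 lines share no control libraries, and in both the median of all genes was lower in the shorter length bins.

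In the authors' deposited table for PSC4, 91 members were matched by symbol or synonym (Atp5mpl was not), of which 37 were lower and 0 higher at an adjusted p under 0.05, with a median of -0.66, beside 20.5% lower and 22.4% higher of all genes there. Of those 37, 30 were also called here. In the authors' deposited table for KPC4 1 of 91 was lower, Ndufb2 (-1.06, adjusted p = 0.0398), beside 0.683% of all genes there.

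A pair of ATP synthase genes fell outside the naming rule by their older symbols. Atpif1, the inhibitor that blocks ATP hydrolysis by the enzyme, was at 95.8, 106 and 61.7 CPM with Control-SU and at 46.5, 25.5 and 21.6 CPM with Gem-SU in PSC4 and fell (-1.49 ± 0.32, edgeR adjusted p = 0.00529), while in KPC4 it gave -0.33 ± 0.22 (edgeR adjusted p = 0.472). Usmg5, a small subunit of the membrane part, had 72.9, 112 and 47.2 CPM against 53.9, 27.2 and 34.2 CPM in PSC4, with overlap (-1.01 ± 0.34, edgeR adjusted p = 0.0391).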

How the data were processed

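The 12 total RNA libraries were read on a NovaSeq X Plus instrument, as the labels' protocols state. The authors deposited a table of raw counts per gene for each line and a table of log2 fold changes with p-values and adjusted p-values. Per the submitters' processing notes, FastQC, Trim Galore 0.6.10, cutadapt 5.2, Salmon, R 4.5.1, DESeq2 and the build GRCm39 were used; their roles, the annotation and the counting rule are not given in the sources used here. Since Salmon estimates counts, the deposited whole-number counts may be rounded estimates, and genes with near-identical copies are uncertain.

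Symbols and transcript lengths came from GENCODE M21, promoter windows from RefSeq on GRCm38.p6; gene coordinates were not taken from the tables. Each line was fitted with edgeR 4.0.16 in R 4.3.3 (filterByExpr, TMM, robust quasi-likelihood test, Benjamini-Hochberg adjustment over all genes tested, threshold 0.05), on its own 6 libraries, and the interaction on all 12. CPM values are scaled by TMM within a line, and shares use plain library totals. DESeq2 1.42.0 was an alternative, beside other scalings, filters, a replicate block, leaving out each library, and, added after the data were seen, GC and length offsets and a newer quasi-likelihood fit. The fits were tested on simulated data. At these depths intervals from counting are narrow, and replicates limit the precision.

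Replicate numbers are shared across groups. Same-numbered libraries deviated together in KPC4 (correlations 0.351, 0.436 and 0.211), so the block is printed beside KPC4 results; this pairing comes from the values, not from the labels.

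The members and lists were chosen with earlier results of these data known. Named genes were the complex II, mitochondrial-encoded and paralogue members, the 2 with the smallest p in each direction per complex and line with a mean of at least 50 counts, the 3 with the smallest interaction p in each direction, and the 2 with the smallest p per pathway list. KPC4 members that passed only with the block, regulators beside Gabpb1 and other genes were named after their values were seen. The values of 1 member are not reported here, although it is counted in the totals.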

Additional observations from a re-analysis of the deposited data

How the results depend on the processing

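The alternatives with GC and length offsets and the newer quasi-likelihood fit were chosen after seeing the data. Of the PSC4 members, 33 passed, all lower, beside 46.3% of all genes (22.0% lower). DESeq2 called 51, beside 43.7%, and the replicate block 56, beside 54.4% (26.6% lower). The block with GC and length offsets called 35, 31 of them lower and 4 higher, beside 58.7%. Leaving out 1 library gave 7 (without Gem-SU replicate 2) to 58 (without Gem-SU replicate 1). The shares of all genes called without 1 library are not given here. Over all genes the same-numbered PSC4 libraries did not all deviate together (correlations 0.428, -0.0548 and 0.102), so the block is not printed beside each PSC4 gene. The median deviation of the nuclear members fell from replicate 1 to replicate 3 in both PSC4 groups, a description taken from the tested members themselves. With the block 49 of the 79 nuclear members were lower, beside 26.6% of all genes. Among them were Cox4i1, Cox6b1 and Cox8a (edgeR adjusted p = 0.00321, 0.00138 and 0.00419), which did not pass without it. With GC and length offsets and no block these 3 genes gave -0.26, -0.34 and -0.01 (edgeR adjusted p = 0.273, 0.229 and 0.929). With the block and the offsets together 28 nuclear members were lower and 4 higher, beside 58.7% of all genes called in either direction. Of the KPC4 members 0 passed; DESeq2 called 1, the replicate block 5, and the block with GC and length offsets 3, and leaving out 1 library gave 0 in each of 6 fits. Members whose change differed between the lines numbered 0; requiring 10 counts in every library gave 1, DESeq2 3, the replicate block 10, the offsets 1, the block with offsets 5, and leaving out 1 library 0 to 12. Median changes kept their sign in every alternative run; the mitochondrial-encoded median in PSC4 moved from -0.92 to -0.34 with the offsets, with or without the block. The cause of these moves was not tested. Some named members changed sign under some settings. In PSC4 the single fit over all 12 libraries gave -0.01 for Atp5g1, -0.04 for Atp5g3 and -0.05 for Cox5a, for which DESeq2 and its size factors gave -0.01 and the block 0.00. The offsets, without and with the block, gave -0.02 and -0.02 for Atp5g1, 0.23 and 0.30 for Atp5g2, and 0.09 and 0.09 for mt-Atp8. In KPC4 they gave 0.23 and 0.22 for Cox4i1, 0.08 and 0.07 for Cox6a1, 0.24 and 0.29 for Cox7a1, 0.15 and 0.13 for Cox8a, -0.06 and -0.06 for Ndufs1, and 0.08 and 0.09 for mt-Atp8. The block gave -0.02 for Ndufa5 and -0.03 for Uqcr10, and plain library totals -0.01 for Uqcr10. Leaving out 1 PSC4 library gave -0.24 to 0.33 for Atp5g1, -1.07 to 0.24 for Atp5g2, -0.24 to 0.33 for Atp5g3, -0.30 to 0.27 for Cox5a and -0.06 to 0.32 for Uqcrq. Leaving out 1 KPC4 library gave -0.03 to 0.29 for Atp5f1, -0.42 to 0.07 for Atp5g3, -0.24 to 0.18 for Cox4i1, -0.42 to 0.26 for Cox7a1, -0.28 to 0.03 for Cox8a, -0.27 to 0.33 for Ndufa5, -0.04 to 0.14 for Ndufs1, -0.28 to 0.01 for Sdhd, -0.18 to 0.27 for Uqcr10, -0.25 to 0.06 for mt-Co1 and -0.50 to 0.00 for mt-Nd4. With 3 libraries a group, the spread between replicates and not the depth limits the precision, except for Cox7a1 and Atp5g2, whose counts are low.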
